A study of Mus musculus with 11 samples.

Results

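The cells described here are the cells of the embryonic day 14 (E14) cochlear duct that carry markers of the lateral part of Kölliker's organ (KO). They were chosen by a gate on 11 genes. A cell entered when it had at least 1 UMI (unique molecular identifier, the tag that marks 1 captured transcript) of Ctgf, at least 1 UMI of Ano1, Itga8 or Nr2e1, none of Fgf20, Fgfr3, Prox1, Atoh1, Calb1 or Bmp4, and a deposited value of Oc90 below 2.5. The gate took 414 of 5253 E14 cells. Replicate 1 held 181 of 2198 cells, or 8.23% (95% exact binomial interval 7.12% to 9.46%), and replicate 2 held 233 of 3055, or 7.63% (6.71% to 8.63%). The intervals overlapped, and they cover counting error only. Gate genes were measured in the cells that they chose and are given below as a description, with no test.

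The study captured single cells from the floor of the cochlear duct of wild-type CD1 mice on the 10x Chromium platform. No group carried an engineered allele or received an agent. The deposited groups were 4 ages, with 2 libraries at E14, 3 at embryonic day 16 (E16), 4 at postnatal day 1 (P1) and 2 at postnatal day 7 (P7), and 30634 cells in all. The paper states a minimum of 3 replicates per age, more than the 2 libraries at E14 and P7 here. It also reports fewer E14 cells, so the E14 cells used here are not the same set. Each library was made from the pooled tissue of several animals of either sex, so that a library is the unit of replication and no value belongs to 1 animal.

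KO is a ridge of tall columnar cells on the floor of the duct, medial to the organ of Corti. Before hearing begins its cells secrete much of the tectorial membrane, the acellular sheet that later lies over the hair bundles, and release ATP that drives bursts of activity in neighbouring inner hair cells. The ridge is transient, and after birth much of it is remodelled into the inner sulcus. Ctgf (now named Ccn2) encodes a secreted matricellular protein, Ano1 a calcium-activated chloride channel used in those ATP-driven bursts, Itga8 an integrin alpha chain, and Nr2e1 an orphan nuclear receptor known from neural stem cells.

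Members passed the gate on few UMIs. A Ctgf UMI was found in 2156 E14 cells, and 765 of them also held Ano1, Itga8 or Nr2e1. Of these 765, Calb1 removed 199, Bmp4 94, Fgf20 46, Oc90 21, Fgfr3 and Atoh1 18 each and Prox1 11, with some cells removed by more than 1 gene. The median member held 3 Ctgf UMIs and the quartiles were 1 and 5, while 122 members held exactly 1, the least that the gate accepts. Itga8 was the commonest second marker, in 349 members, against 117 for Ano1 and 78 for Nr2e1. Most members met the second condition by a single gene, with 299 holding 1 of the 3 genes, 100 holding 2 and 15 all 3. Just outside the gate lay 567 cells with Ctgf and none of the 3 second markers, and 252 cells with a second marker and no Ctgf. At the Oc90 limit, 128 members held some Oc90, up to a value of 2.26 on the ln scale, and the lowest of the 13 cells refused for Oc90 alone had 3.31.

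Gate genes followed the choice. Mean levels, in UMIs per 1000000 UMIs of the cell (CPM), are given for replicates 1 and 2 in turn. Ctgf was at 988.8 and 717.5 CPM in members and at 253.4 and 174.7 CPM in all other E14 cells. Itga8 was at 373.9 and 340.3 CPM in members against 53.9 and 51.5 CPM. Ano1 was at 101.4 and 94.8 CPM against 16.3 and 14.1 CPM. The members were above the other cells in both libraries for each of these genes, which the gate fixes. Nr2e1 was at 64.0 and 44.8 CPM against 9.72 and 6.36 CPM.

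Depth moved with the gate. Members had medians of 3645 and 4554 UMIs per cell, other E14 cells 3501 and 3268.5. Those other cells that met the negative conditions of the gate had 2732 and 2590.5. Cells with Ctgf and no second marker had 2806 and 2684.5. Weighting to the UMI counts of members was run only against all other cells. When every cell was drawn down to 1500 UMIs, 92 and 98 cells passed (4.19% and 3.21%), and 72 and 82 of these were members at full depth as well. Cells of more than 3000 genes made up 39 of 181 and 75 of 233 members, and 301 of 2017 and 477 of 2822 other cells. Doublets were not called, and counts without these large cells are given where they matter. The libraries shared 11 cell barcodes, and 1 member carried such a barcode.

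Hair cell and mesenchyme markers were lower in members than in other cells, while roof markers were closer in level. The neural and glial sum was higher, with Isl2 as its only called rise. The summed level of the hair cell list reached 81.5 and 54.9 CPM in members against 311 and 292 CPM in other cells, with 4 and 7 of its 12 measured genes at 0. The mesenchyme list reached 7.88 and 5.24 CPM against 35.3 and 33.8 CPM. Roof markers reached 269 and 257 CPM against 325 and 334 CPM, and neural and glial markers 321 and 409 CPM against 269 and 294 CPM. Of the 4 tested neural genes Isl2 alone rose, from 95.9 and 121 CPM to 179.8 and 219.8 CPM. The label itself rests on the gate genes, so its lateral position has no marker outside the gate here. Fabp7, which marks KO cells next to the organ of Corti after birth, was at 1.05 and 0 CPM in members.

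**Figure D1:**
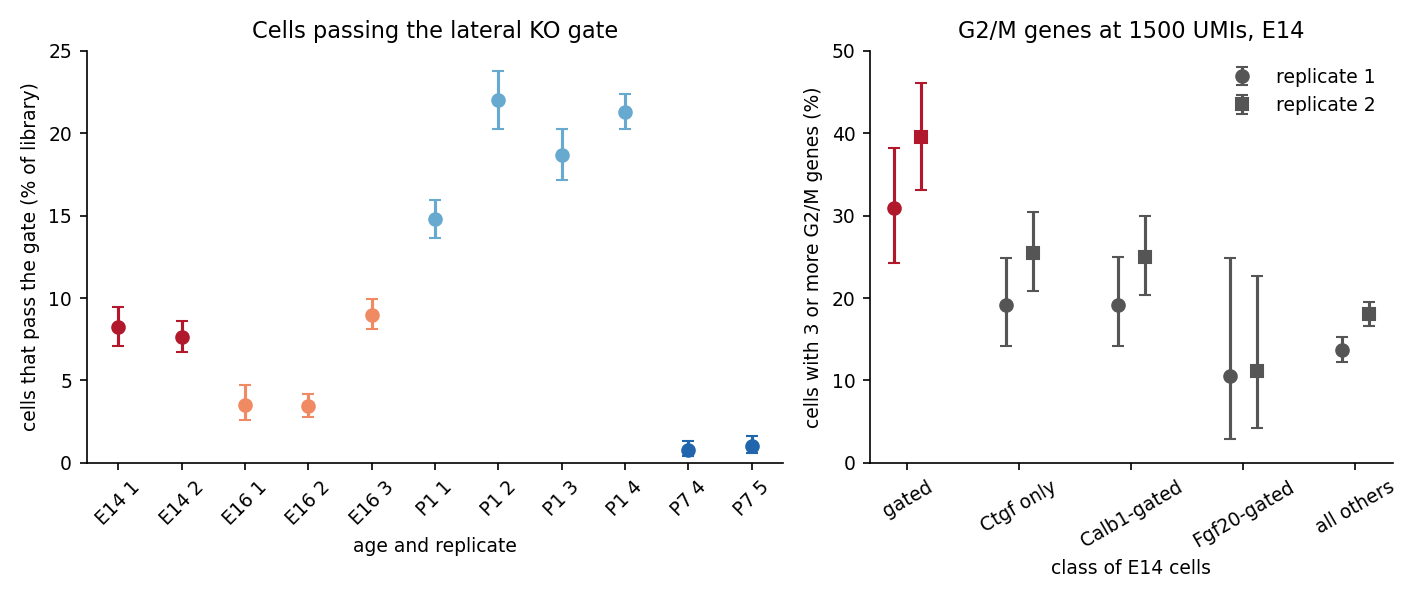
Left, the percentage of each library's cells that pass the gate, by age and replicate, with 95% exact binomial intervals; the P1 libraries lie between 14.8% and 22.0%, and both P7 libraries lie under 1.00%. Right, the percentage of cells of 5 E14 classes with 3 or more genes of the G2 and M phase list after drawing to 1500 UMIs, for both replicates with the same kind of interval; members stand at 30.9% and 39.5% and Fgf20-gated cells at 10.5% and 11.1%.

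Members were compared with all other E14 cells to ask how they differ from the rest of the duct. They carried more of the tectorial membrane and KO matrix genes, led by Tecta, more G2 and M phase transcripts and more Fgf10, and far less of the genes of the lesser epithelial ridge, the interdental cells and the hair cells. A difference found here can be shared with the Calb1-gated and Fgf20-gated cells described below, which are among the other cells. Ebf1 was called against neither class (0.21 on the log2 scale for each), and Gjb2 was not called against Fgf20-gated cells (0.28). Of 8897 genes outside the gate 941 were called (10.6%), of which 405 were higher (4.55%) and 536 lower (6.02%) at an adjusted p of 0.05 (limma, library as a block, Benjamini-Hochberg adjustment over all genes tested). With means of the deposited ln values in place of CPM the balance turned, to 847 higher and 448 lower. The median log2 fold change over all genes was 0.00. With 2 libraries there is 1 residual degree of freedom per gene, and the variance was mostly borrowed from other genes through a mean trend, without which 318 genes were called. The study's methods describe separate collections, each pooled from 1 litter. The library block removes level differences between collections, and without the block 159 genes were called. The p-values then rest on how the difference between members and others varied, mostly as estimated from other genes of like level. A gene could thus be called with its 2 libraries on opposite sides of 0. Fst was called higher than in the Calb1-gated cells described below, with libraries at -0.25 and 1.88 on the log2 scale.

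Tecta encodes alpha-tectorin, the main non-collagenous protein of the tectorial membrane (chromosome 9, 42329619 to 42399929, GRCm38). Its level was 1065 and 1145 CPM in members and at 371 and 392 CPM in other cells. The groups did not overlap, which with 2 libraries a side holds for 45.4% of all genes tested here (21.8% with members higher, 23.6% lower), and the log2 fold change was 1.51 ± 0.07 (SE, 2 libraries, limma adjusted p = 2.3e-26). After drawing to 1500 UMIs, 71.3% and 76.0% of members had a Tecta UMI, against 33.9% and 34.1% of other cells. No class known to lack Tecta was set here, so the share that free RNA gives was not measured.

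The collagens that form the tectorial fibrils moved with Tecta. Col2a1, the type II collagen chain (chromosome 15, 97975602 to 98004695), was at 1288 and 1339 CPM in members and at 660 and 610.5 CPM in the others, a log2 fold change of 1.04 ± 0.07. Of the 12 tested genes of the tectorial membrane list, 8 rose, namely Tecta, Tectb, Col2a1, Col9a1, Col9a2, Col9a3, Col11a1 and Col11a2. With the mean trend off 3 of the 12 rose, and without the library block 2. Otoa, which encodes the otoancorin that anchors the sheet to the interdental cells, fell, from 36.2 and 29.2 CPM in other cells to 4.97 and 4.29 CPM in members. It passed the filter on low values through the other cells alone. The list median was 0.42, beside 0.00 over all genes. Colgalt2, a galactosyltransferase that modifies collagen, rose by 1.30 ± 0.20 on the log2 scale, with members at 57.5 and 21.9 CPM and other cells at 11.2 and 6.86 CPM.

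The list of E14 KO genes came from the study's own analysis of these libraries, so its direction is not independent evidence. Of its 18 genes, 17 rose and 1 fell, with a median of 0.68. With the mean trend off 9 rose, and without the library block 7. Ebf1, a transcription factor, was at 1022 and 1357 CPM in members and at 570.2 and 810 CPM in other cells. Spock1, a secreted proteoglycan, was at 375 and 309 CPM against 183 and 162 CPM. The groups did not overlap for either gene. Dkk3, a divergent member of the Dickkopf family of secreted proteins, was at 149 and 139.7 CPM against 57.3 and 57.2 CPM (log2 fold change 1.20 ± 0.13). Lum and Dcn, small leucine-rich proteoglycans that bind collagen fibrils, rose by 0.28 ± 0.06 and 0.56 ± 0.07. The exception was the proteoglycan of the same family, Epyc, which was at 209.7 and 175 CPM in members and at 572 and 472 CPM in other cells (-1.39 ± 0.09 on the log2 scale).

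Part of any contrast with all other cells is set by the negative genes of the gate, which remove other cell types from one side. Against those other cells that met the negative conditions too, 479 of 8771 genes were called (5.46%), 231 higher (2.63%) and 248 lower (2.83%). Tecta was then higher by 1.07 and Col2a1 by 1.10 on the log2 scale, and Epyc was lower by 1.23. In the tectorial list 8 genes rose and 1 fell, but Tectb was no longer among the rises (-0.05 on the log2 scale, limma adjusted p = 0.85), and 13 of 18 KO genes rose. The KO median went from 0.68 to 0.35, with Dcn at 0.22 and Ebf1 at 0.31 on the log2 scale. Of the 167 genes of any list that were called against all other cells, 83 were still called in the same direction, 64 were not and 20 were too low to be tested.

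**Figure D2:**
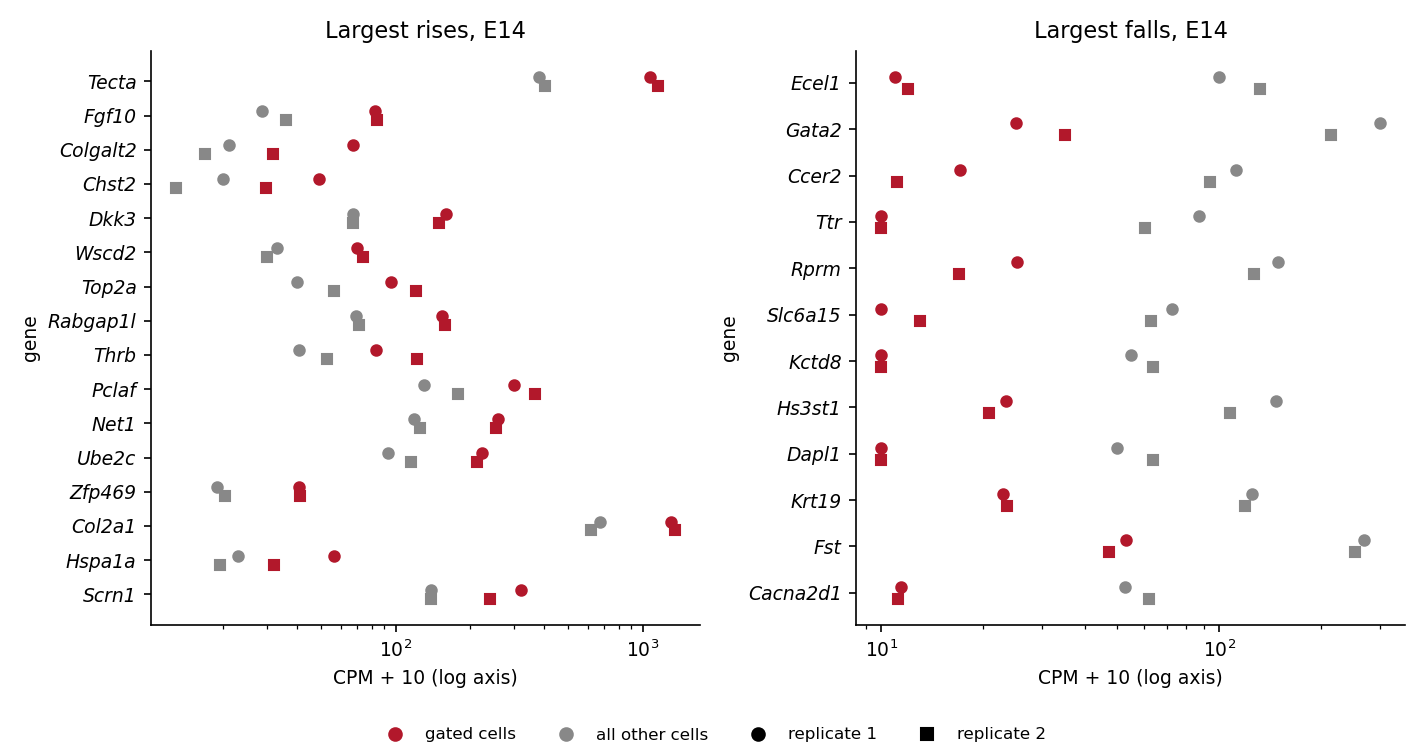
Mean CPM + 10 on a log axis for the 16 genes with the largest rise and the 12 with the largest fall in E14 members against all other E14 cells, 1 gene per row, red for members and grey for other cells, circles for replicate 1 and squares for replicate 2. For Tecta both red points lie near 1100 and both grey points near 400, and for Ecel1 both red points lie near the added 10 CPM.

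Members carried more transcripts of dividing cells. Top2a, the topoisomerase that untangles chromosomes before mitosis, was at 85.4 and 110.5 CPM in members and at 29.7 and 46.1 CPM in other cells (1.18 ± 0.15 on the log2 scale). Ube2c, which charges the anaphase-promoting complex with ubiquitin, was at 213.6 and 204 CPM against 83.3 and 106 CPM. Pclaf, a factor that binds PCNA at replication forks, was at 290 and 356.6 CPM against 120.6 and 169.6 CPM. For each of the 3, members were above the others in both libraries, but the sign of Pclaf depended on the gate, as did that of the S phase gene Rrm2, and both turned when at least 2 second markers were required. Of 26 tested G2 and M phase genes, 22 rose and none fell, with a median of 0.70. Of 23 tested S phase genes 6 rose, among them Ccne2, Pcna, Rrm2, Tipin and Tyms, and none fell.

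The share of cells with 3 or more G2 and M phase genes, each cell drawn to 1500 UMIs, was 30.9% and 39.5% in members and 13.7% and 18.0% in other cells. Without the draw the members' shares were 52.5% and 60.1%. Cells with Ctgf alone stood at 19.1% and 25.4%, between members and all other cells. Their shares were close to those of like cells. Others that met the negative conditions stood at 17.5% and 22.1%, and Calb1-gated cells, which lack Ctgf and are described below, at 19.2% and 24.9%. The regulators of the cycle moved less uniformly. Cdkn1c, which encodes the cyclin-dependent kinase inhibitor p57, was at 401 and 294 CPM in members against 960 and 893 CPM, and Cdkn1a, which encodes p21, fell as well, but not under the negative conditions. Ccnd2, the D2 cyclin, was at 1.33 and 1.12 CPM in members against 45.7 and 37.8 CPM, and Ccnd1 fell by 0.41 ± 0.09. Ccnd2 passed the filter on low values through the other cells alone.

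The cell cycle result depended on which cells were counted and on the fit. With at least 2 of the 3 second markers required, 1 of 25 G2 and M genes rose, with 20 above 0 and a median of 0.35. Without cells of more than 3000 genes 9 of 26 rose, with all 26 above 0 and a median of 0.52. Against others that met the negative conditions 9 of 26 rose, again with all 26 above 0, and the median was 0.40. Weighting the other cells to the UMI counts of members left 22 of 26. Requiring Oc90 to be 0 left 13 of 26, turning the trend off 11 and dropping the library block 5. The S phase list held 4, 0 and 0 rises in these settings. The S phase list gave 0 rises and 3 falls among 21 genes when 2 second markers were required, with 9 above 0 and a median of -0.04, and there Pclaf was at -0.16 and Rrm2 at -1.47. Without cells of more than 3000 genes none of 21 was called, with 17 above 0 and a median of 0.19, and under the negative conditions 1 of 24 rose, with 19 above 0 and a median of 0.17. Without any cell of 3 or more G2 and M genes, a comparison added after the data were seen, 674 of 8844 genes were called (7.62%), 264 higher (2.99%) and 410 lower (4.64%), and the KO list still held 17 rises and 1 fall. What part large or doubled cells have in the cycle result was not tested.

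Signalling ligands and receptors moved in both directions. The counts of each list stand beside the 4.55% of all genes that rose and the 6.02% that fell. Fgf10, a ligand of the fibroblast growth factor (FGF) family, was at 72.8 and 73.8 CPM in members and at 18.7 and 26.1 CPM in other cells, and the groups did not overlap (1.37 ± 0.17 on the log2 scale, limma adjusted p = 2.2e-09). After drawing to 1500 UMIs, 11.6% and 10.3% of members had an Fgf10 UMI, against 3.12% and 3.58%. Its receptor Fgfr2 was at 0 and 3.64 CPM in members against 31.4 and 33.8 CPM in other cells, through which alone it passed the filter on low values. Of 14 tested FGF genes, Fgf10 and the feedback inhibitor Spry1 rose, and Fgfr2, Fgf9 and the target Etv4 fell, with a median of -0.21. Under the negative conditions Spry1 was at 0.23 and Fgf9 at -0.05 on the log2 scale, neither of them called, and Fgfr2 was too low to be tested.

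Of 14 tested Notch genes 3 rose, and the list median was 0.19. Jag1, the ligand that acts in prosensory specification, was at 26.8 and 32.8 CPM in members against 13.1 and 14.8 CPM. The receptor gene Notch1 rose by 0.48 ± 0.12 and the feedback inhibitor Nrarp by 0.49 ± 0.11. Hes6, which opposes Hes1, fell by 0.67 on the log2 scale. Under the negative conditions Notch1 was still called, while Jag1 (0.58), Nrarp (0.23) and Hes6 (-0.33) were not. In the Wnt list 3 of 26 genes rose and 5 fell, around a median of 0.04, where 4.55% of all genes rose and 6.02% fell. Fzd8 and Wnt9a rose beside Dkk3, while Fzd9, Fzd6, Lrp5, Rspo2 and Sfrp1 fell, and Fzd8, Wnt9a, Fzd6, Lrp5 and Sfrp1 lost the call under the negative conditions. In the BMP and TGF-beta list 2 of 30 genes rose and 3 fell, shares near the 4.55% and 6.02% of all genes. Tgfb2, a ligand, was at 888 and 875 CPM in members against 693 and 734 CPM. The inhibitors Fst and Nog were lower, Fst at 43.1 and 37.3 CPM against 257.5 and 241.7 CPM, and so was Id4, at 145 and 102 CPM against 302 and 221 CPM. Against others that met the negative conditions the log2 fold change of Id4 was 0.059, in place of -1.02, that of Tgfb2 was 0.13 and not called, and Nog was not tested.

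Ctgf is a known target of YAP and TEAD, the transcriptional arm of the Hippo pathway, and the other genes of that list were read beside it. Of 29 tested genes 6 rose and 3 fell, and the median was 0.09. Of all genes 4.55% rose and 6.02% fell, and the falls of the list are near that rate. Cyr61, the CCN family relative of Ctgf and a target of the same factors, was at 2052 and 1925 CPM in members and at 1641 and 1706 CPM in other cells. The groups did not overlap, but the log2 fold change was only 0.25 ± 0.06. Igfbp3, Asap1, Amotl2, Tgfb2 and Birc5 also rose, of which Birc5 is a G2 and M phase gene as well. F3, the tissue factor gene, Rbms3 and Gadd45a fell. Under the negative conditions Cyr61, Birc5 and Rbms3 were still called and the other 6 were not.

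Transcription factors with regional patterns split almost evenly, with 15 of 45 tested genes higher and 12 lower, and a median of 0.10. Sall3, a zinc-finger repressor, was at 78.9 and 105 CPM in members against 43.1 and 42.5 CPM. Tbx2, a T-box repressor, was at 72.0 and 73.5 CPM against 34.9 and 36.8 CPM. Nr2f1, a nuclear receptor that patterns the duct, was at 494 and 649 CPM against 318 and 382 CPM. For all 3 the members were above the others in both libraries. Gli2, Gli3, Prdm16, Six2, Eya4 and Mycn also rose, of which Mycn lost the call under the negative conditions. Gata2 was at 15.0 and 24.9 CPM in members against 289 and 204 CPM. It was not called against the Calb1-gated (0.59 on the log2 scale) or Fgf20-gated cells (-0.59) described below. Low Gata2 was therefore not shown to be particular to members. Lmx1a, Tbx1, Tbx3, Irx1, Irx2 and Otx2 were each under 6 CPM in members in both libraries. These genes passed the filter on low values through the other cells alone and could only be lower, so the near-even split is partly set by the filter. Thrb, the thyroid hormone receptor beta gene needed for hearing, rose from 30.7 and 42.9 CPM to 73.6 and 112 CPM.

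Gap junction genes couple cochlear supporting cells. Gjb2, connexin 26 (chromosome 14, 57098600 to 57104702), was at 993.7 and 865 CPM in members against 594 and 474 CPM, and rose by 0.79 ± 0.07 on the log2 scale. Gjb6, connexin 30, was at 39.3 and 32.9 CPM against 21.8 and 13.8 CPM and also rose, though it was not called under the negative conditions (0.51, limma adjusted p = 0.14), where Gjb2 was (0.51). The sodium pump subunit Atp1b1 rose by 0.54 ± 0.09. Of 10 tested ion transport genes these 3 rose, Itpr1 fell, and Aqp5, a water channel, had no UMI in any member. The 0 UMIs among 2294834 allow up to 1.31 CPM (3 UMIs over the class), so that Aqp5 was at least 24.4-fold lower than its mean of 31.9 CPM in other cells. Aqp5 passed the filter on low values through the other cells alone and was not tested under the negative conditions.

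Of 21 tested claudin, cadherin and related genes 9 fell and 3 rose, with a median of -0.29. Cdh2 (N-cadherin) was at 117 and 123 CPM in members against 67.3 and 64.5 CPM, and Cdh4 (R-cadherin) also rose. Cdh1 (E-cadherin) was at 30.2 and 21.5 CPM against 53.1 and 54.8 CPM, and Cdh3 (P-cadherin) fell with it, though neither was called against others under the negative conditions. Among tight junction genes Cldn4, Cldn6, Cldn3 and Cldn8 fell, Cldn4 from 443 and 433.5 CPM to 198 and 142 CPM. No gene of the 16 tested in the basement membrane and integrin list rose, and 7 fell, among them Frem2, Npnt, Fn1, Col4a1 and Col4a2, of which the last 4 were not called under the negative conditions and Frem2 was not tested. In the guidance list 2 of 26 rose, Epha7 and Robo2, and 4 fell, Bdnf, Sema3a, Sema3f and Efna1. The share of rises is near the 4.55% of all genes. Of these 6, Epha7, Sema3f and Efna1 lost the call under the negative conditions and Sema3a was not tested. In the retinoic acid list 1 of 12 tested genes rose, Rxrg, and 4 fell, among them Cyp26a1, Aldh1a3 and Rdh10, and the rise of Rxrg was not called under the negative conditions. Over all genes 4.55% rose and 6.02% fell, so that a single rise is near that rate.

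The lesser epithelial ridge list, for cells lateral to the organ of Corti, had 10 of 11 genes lower, with a median of -1.31, and its 1 rise was Gjb2. The gate refuses Bmp4, which marks part of that region, and under the negative conditions 6 of 9 tested genes fell and 1 rose, with a median of -0.90. Hs3st1 was at 13.4 and 10.9 CPM in members against 137.5 and 97.4 CPM. The interdental list, for the medial edge, had 9 of 11 genes lower and none higher, with a median of -1.35. Smoc2, a secreted matricellular protein, was at 55.4 and 53.5 CPM against 239 and 236 CPM. Against others that met the negative conditions all 11 interdental genes fell. In the hair cell list 4 of 5 tested genes fell, Ccer2, Pcp4, Pou4f3 and Myo6. The gate refuses Atoh1, an early hair cell gene, so part of this fall is set by the gate. Under the negative conditions Ccer2 (-1.23), Pcp4 (-1.23) and Myo6 (-0.87) were still called, and Pou4f3 was not tested. Ecel1, the gene with the largest fall in the fit, was at 1.02 and 1.96 CPM in members and at 90.2 and 122 CPM in other cells. After the same draw as for Tecta, 0.55% and 0.86% of members had an Ecel1 UMI, against 8.43% and 10.4% of other cells. The shares were 0.91% and 0% in Calb1-gated cells and 2.63% and 0% in Fgf20-gated cells, both described below. Low Ecel1 was therefore shared with these classes and does not set members apart from them. Ttr, which encodes the thyroid hormone carrier transthyretin, Kctd8 and Dapl1 had no UMI in members, which puts them at least 48.7-fold, 37.8-fold and 35.8-fold lower. Like Ecel1, they passed the filter on low values through the other cells alone. Ecel1, Ttr, Kctd8 and Dapl1 were not tested under the negative conditions. The early response list, a sign of stress during dissociation, summed to 11463 and 7715 CPM in members against 10365 and 8286 CPM. Of its 19 tested genes Hspa1a and Jund rose and Fos fell, Fos not under the negative conditions. Of all genes 4.55% rose and 6.02% fell, so a single fall is near that rate. Hspa1a shares reads with its near-identical copy Hspa1b and is uncertain.

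A pair of other classes of E14 cells was gated in the same way to place the members between them. Calb1-gated cells, 219 and 329 in number, had Calb1, a marker of more medial KO, and no Ctgf. Fgf20-gated cells, 38 and 54 in number, had Fgf20, a marker of the prosensory domain, and no Ctgf. Both met the other negative conditions of the gate, except that Calb1 was allowed in Fgf20-gated cells. The members stand in every one of these comparisons, so the values are given side by side. Depth differed here as well, with medians of 2895 and 2985 UMIs in Calb1-gated and 3186 and 3187 UMIs in Fgf20-gated cells.

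Against Calb1-gated cells, members were higher in prosensory genes and lower in interdental genes. Of 8746 genes 557 were called (6.37%), 299 higher (3.42%) and 258 lower (2.95%). Tectb encodes beta-tectorin, the partner of alpha-tectorin. It was at 249 and 317.5 CPM in members and at 20.4 and 29.1 CPM in Calb1-gated cells, and the groups did not overlap (log2 fold change 3.08 ± 0.17), as was so for 41.4% of all genes tested in either direction. Socs2, a feedback inhibitor of cytokine and growth hormone signalling, was at 404 and 316 CPM against 38.0 and 29.1 CPM (3.09 ± 0.16). In all other E14 cells together these genes were at 167.8 and 214.9 CPM and at 377 and 353 CPM. S100a1, Sall3 and Colgalt2 were the next largest rises. Of 14 tested prosensory genes 10 rose and none fell, with a median of 1.10. Isl1, a LIM homeodomain factor, was at 416 and 381.5 CPM in members against 108 and 127 CPM.

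The falls against Calb1-gated cells were led by Epyc, which was at 209.7 and 175 CPM in members and at 1688 and 1596 CPM in Calb1-gated cells (log2 fold change -3.03 ± 0.09). Foxq1, a forkhead factor, Smoc2, Upp1, which encodes uridine phosphorylase, and Igf1, insulin-like growth factor 1, followed. All 11 interdental genes fell, with a median of -1.41. The KO list, in contrast, split into 4 rises and 5 falls with a median of -0.03, and the 3 tested small leucine-rich proteoglycans Lum, Dcn and Epyc all fell. Tecta rose by 0.96 ± 0.09. In the BMP and TGF-beta list 8 of 28 genes rose. In the early response list 8 of 19 rose and none fell, with a median of 0.45, and its part in these differences was not tested. Of 29 G2 and M phase genes 3 rose.

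Against Fgf20-gated cells the direction of the prosensory genes was the opposite. Of 8856 genes 370 were called (4.18%), 179 higher (2.02%) and 191 lower (2.16%). Tectb was at 875 and 1198 CPM in Fgf20-gated cells, Socs2 at 1253 and 1241 CPM and Isl1 at 1553 and 1938 CPM, and members were below them in both libraries for each gene. Of all genes tested here, 43.0% did not overlap in one direction or the other. Of 16 tested prosensory genes 10 fell and none rose, with a median of -1.37. Npy, Pcp4, Rprm, Vstm2b and Fst were the largest falls, and Fst was at 485 and 425 CPM in Fgf20-gated cells. KO genes stood the other way, with 14 of 18 higher, none lower and a median of 1.53. Lum was at 360 and 328 CPM in Fgf20-gated cells against 1508 and 1329 CPM in members, a log2 fold change of 2.01 ± 0.14. Pcolce2, which enhances procollagen cleavage, Sparcl1, Padi2, Abcg5 and the proliferation gene Mki67 were the largest rises. Of 26 tested G2 and M phase genes 10 rose. These calls rest on 38 and 54 Fgf20-gated cells and on the mean trend of the fit, since without the trend limma called 0 genes, with 962 at an unadjusted p below 0.05.

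Set beside each other, the 3 classes gave a few patterns. Socs2, Tectb, Isl1, S100a1 and Plet1 rose from Calb1-gated cells through members to Fgf20-gated cells in both libraries. S100a1, a calcium-binding protein gene, was at 8.74 and 16.8 CPM, then 123 and 87.8 CPM, then 585 and 761 CPM. Lum, Dcn and Sparcl1 ran in the opposite order. Tecta, Col2a1, Net1 and Dkk3 were highest in members. Net1, an exchange factor for RhoA, was at 249 and 246 CPM in members, at 108 and 119 CPM in Calb1-gated cells and at 95.4 and 48.6 CPM in Fgf20-gated cells. Fgf10 was lowest in Calb1-gated cells, at 18.4 and 28.1 CPM, while its level in Fgf20-gated cells, 40.0 and 75.8 CPM, overlapped that of members.

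**Figure D3:**
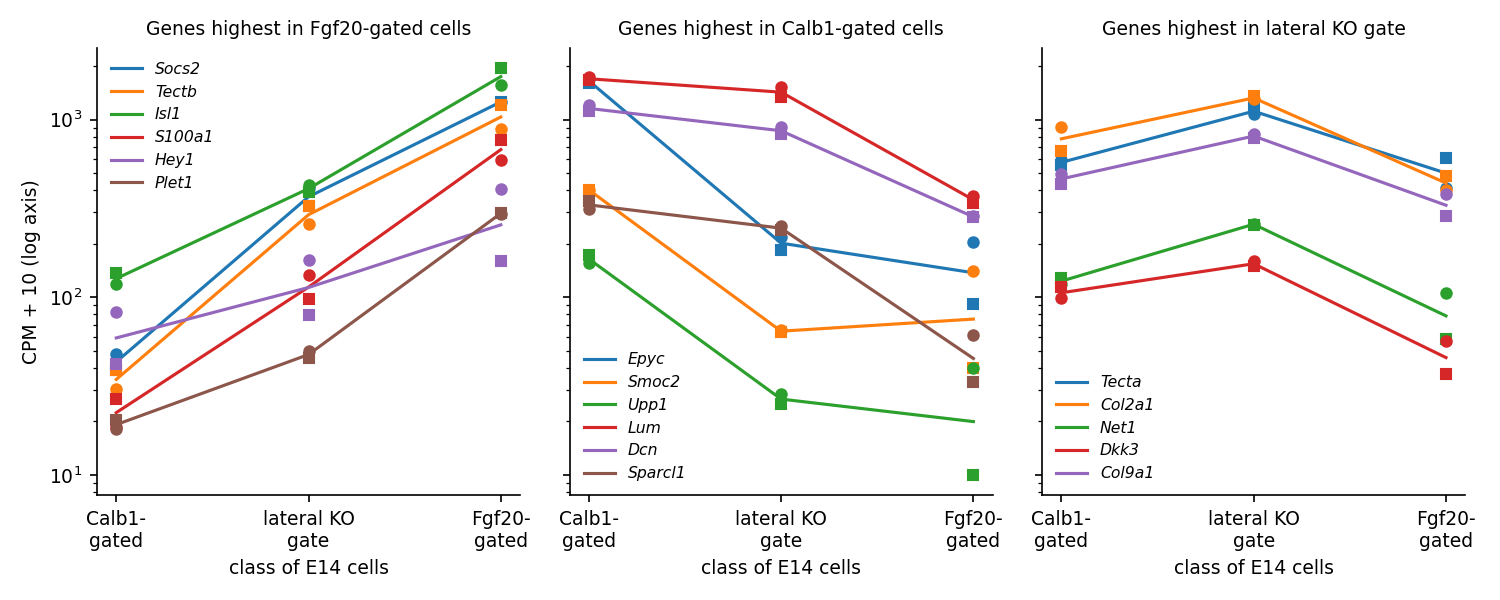
Mean CPM + 10 on a log axis in Calb1-gated cells, members (lateral KO gate) and Fgf20-gated cells of E14, with 1 colour per gene, circles for replicate 1, squares for replicate 2 and lines through their geometric means, for genes chosen after their values were seen. Genes of the first panel, such as Socs2 and Tectb, climb from left to right, and those of the third, such as Tecta and Net1, peak in the middle. Genes of the second panel, such as Epyc, are highest in Calb1-gated cells. Among these, Smoc2 and Upp1 do not fall from members to Fgf20-gated cells in both libraries.

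**Figure D4:**
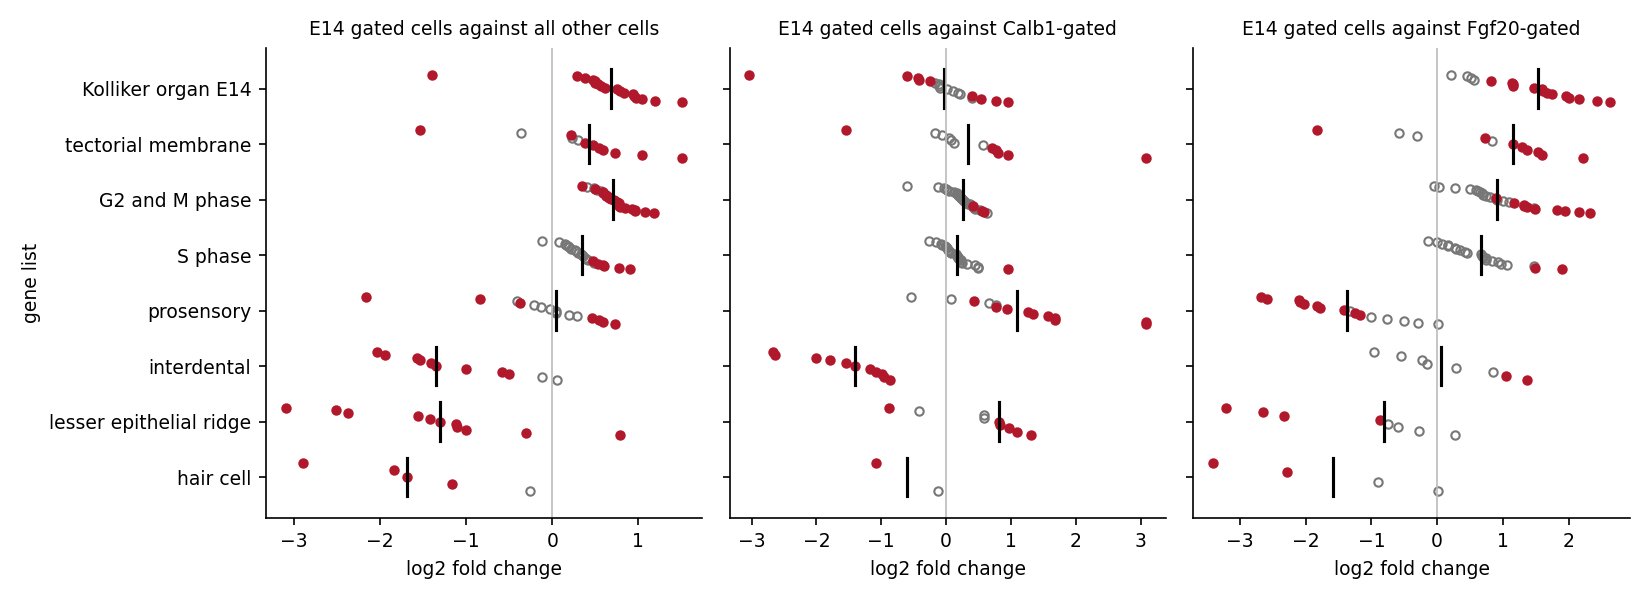
Log2 fold changes of the tested genes of each list in E14 members against all other E14 cells, Calb1-gated cells and Fgf20-gated cells, with 1 list per row, 1 point per gene (filled red at an adjusted p below 0.05, open otherwise) and a black line at the list median. The prosensory list centres at 0.04, 1.10 and -1.37 in the 3 comparisons, and the interdental list at -1.35, -1.41 and 0.07.

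The same gate was then applied at the later ages, in libraries that took no part in choosing the E14 genes. At E16 it took 44, 97 and 350 cells, or 3.53%, 3.45% and 8.97% of the libraries, so that the third library stood apart. It took 14.8% to 22.0% of the P1 libraries, and 14 and 16 cells at P7 (0.789% and 0.999%), where the classes were too small to compare. The third E16 library also held the most Ctgf, at 1666 CPM in gated cells and 512 CPM in the others, against 56.9 and 58.2 CPM in the other cells of the first and second.

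At E16, 312 of 8892 genes were called (3.51%), 138 higher in gated cells (1.55%) and 174 lower (1.96%). Of the genes higher in E14 members, 367 were tested at E16 and 75 (20.4%) were called higher there, which is 54.3% of the E16 rises. The same sign was found for 75.7% of them, against 43.6% of all tested genes above 0. Of 496 genes lower in E14 members 96 (19.4%) were lower at E16. Without the second E16 library the E16 calls numbered 172, and without the third 361. Tecta was at 1627, 1484 and 1094 CPM in E16 gated cells and at 510, 472 and 453 CPM in the others, with a log2 fold change of 1.51 ± 0.10 that matched E14 to 2 decimals. Gjb2 was at 1853, 1563 and 1898 CPM against 403, 473 and 562 CPM. Chst2, which sulfates N-acetylglucosamine on glycans, was the largest rise, at 2.53 ± 0.21.

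Of the 16 largest E14 rises, 15 were tested at E16 and 11 were called higher. Tecta, Fgf10, Chst2, Dkk3 and Net1 were among those. The 4 that did not pass the threshold were the cell cycle genes Top2a, Pclaf and Ube2c, with log2 fold changes of -0.25, -0.13 and -0.67, and Wscd2, at 0.28. Of 16 tested G2 and M phase genes none rose or fell at E16, with a median of -0.22. All 11 tested genes of the 12 largest E14 falls were called lower at E16. The same gate chose the cells at both ages, so part of these falls is set by its negative genes. The shared direction of the rises is not independent of the gate either. Under the negative conditions 231 genes rose at E14, in place of 405. Against other E16 cells under the negative conditions 136 genes were called in all, in place of 312.

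At P1, 3383 of 8482 genes were called (39.9%), 953 higher in gated cells (11.2%) and 2430 lower (28.6%). Of 338 E14 rises tested there, 135 (39.9%) were higher and 50 were called lower, and of 476 E14 falls 257 (54.0%) were lower and 60 higher. The sign was kept by 61.2% of the rises, against 31.4% of all tested genes above 0. It was kept by 74.2% of the falls, close to the 68.6% of all tested genes below 0. Against other P1 cells under the negative conditions 740 genes were called. Net1 stood at 643, 359.9, 554 and 405 CPM in P1 gated cells, against 170.3, 85.7, 124 and 139 CPM in other cells. Tectb, the largest rise, was at 6355, 2195, 3065 and 1600.3 CPM in gated cells of the 4 libraries and at 1604, 440.7, 599 and 406 CPM in the others, with each library's gated cells above its other cells (log2 fold change 2.14 ± 0.07). Wscd2, higher in E14 members, was lower at P1 by 0.80 on the log2 scale.

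**Figure D5:**
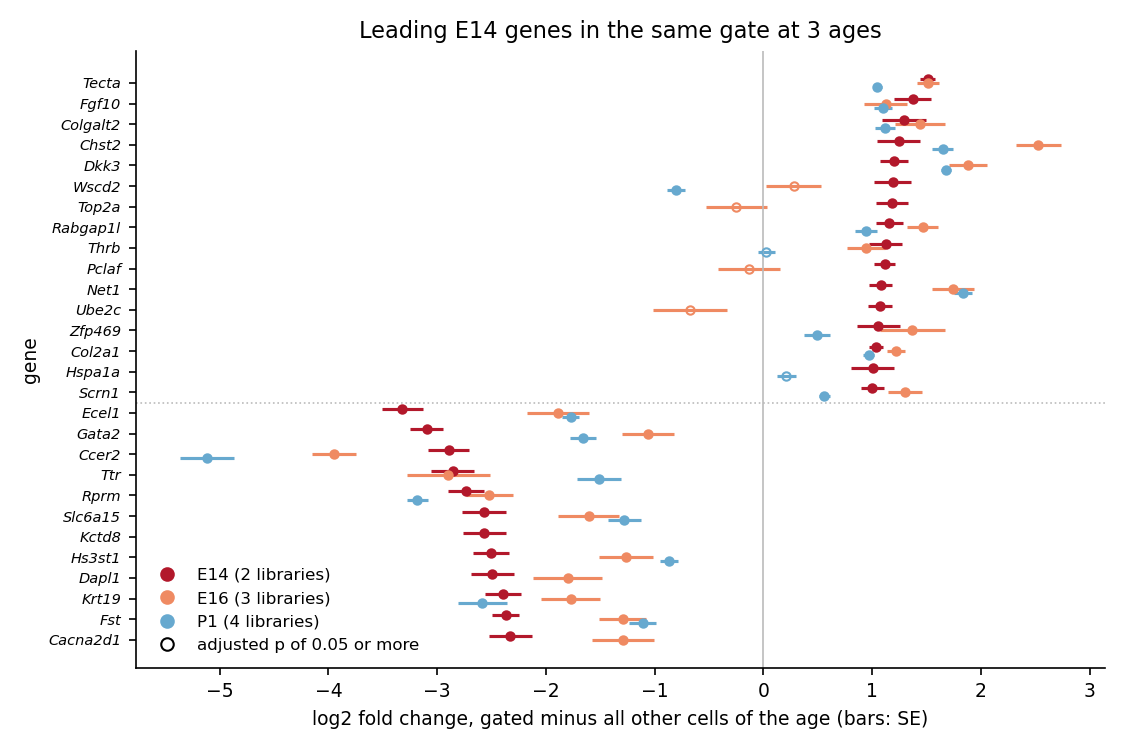
Log2 fold change of gated minus all other cells, with SE bars, for the 16 largest rises and 12 largest falls at E14, shown at E14, E16 and P1; open points have an adjusted p of 0.05 or more. Tecta lies at 1.51, 1.51 and 1.05, and Top2a at 1.18 and -0.25 for E14 and E16.

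The difference between gated and other cells changed from E14 to E16 for 22 of 8935 genes (0.246%), 12 upwards (0.134%) and 10 downwards (0.112%). Igfbp5, which binds insulin-like growth factors, was at 223 and 179 CPM in E14 members against 369.6 and 356 CPM in other cells, and at 1365, 1090.1 and 459 CPM in E16 gated cells against 723, 651 and 369.2 CPM. The difference went from below 0 to above 0, a change of 1.48 ± 0.18 on the log2 scale. At E14 the starting difference depended on the other cells used, and was -0.02 (limma adjusted p = 0.95) against those under the negative conditions. Id4, Lrpap1, Clu, Isl1 and Gjb2 changed in the same direction, and Pvalb, Ccl21a, Nnat and Pcp4 in the other. For several of these genes too the E14 difference depended on the setting. Under the negative conditions the E14 difference of Id4 was 0.059 in place of -1.02 and that of Lrpap1 was -0.0012 in place of -0.83, and with means of ln values that of Clu was 0.54 in place of -0.30. Without either E14 library 1 gene was called, without the second E16 library 1, and without the first E16 library 83, so this short list rests on single libraries.

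Within gated cells alone, E16 libraries were compared with E14 libraries. Of 8859 genes 262 were called (2.96%), 168 higher at E16 (1.90%) and 94 lower (1.06%). The balance of directions turned in other settings, to 194 higher and 824 lower with means of ln values, 444 and 726 with the replicate number as a block, and 365 and 461 without the third E16 library. The median over all genes was -0.18, and ribosomal protein genes made up 18.2%, 17.9% and 15.2% of UMIs in E16 gated cells against 9.70% and 10.9% at E14, so that age and library composition cannot be told apart. Fabp7 rose from 1.05 and 0 CPM at E14 to 328, 71.9 and 127 CPM at E16. At E16 it was not called higher in gated than in other cells (1.43 on the log2 scale, -0.34 in the lowest library, limma adjusted p = 0.082), nor was the change of that difference from E14 called (limma adjusted p = 0.50). Matn4, a matrilin, rose by 3.18 ± 0.42. Jag1 rose from 26.8 and 32.8 CPM to 448, 264 and 151 CPM. The largest falls were cell cycle genes, Ube2c, Pclaf, Cenpa, Pttg1 and Pbk. Ube2c went from 213.6 and 204 CPM to 6.70, 23.0 and 26.6 CPM, with no overlap between the ages, which holds for 27.3% of all genes in that direction. The cycling shares were lower at E16 outside the gate as well. The share of cells with 3 or more G2 and M phase genes, drawn to 1500 UMIs, went from 13.7% and 18.0% to 4.58%, 5.15% and 3.44% in other cells and from 30.9% and 39.5% to 6.82%, 6.19% and 3.71% in gated cells. The change of the gated-minus-other difference was not called for Ube2c, Pclaf, Cenpa, Pttg1 or Pbk (limma adjusted p from 0.25 to 0.73). Its values were -1.75, -1.25, -1.25, -1.11 and -1.33 on the log2 scale, so the missing calls do not show an equal fall in other cells. Without the third E16 library 826 genes were called in all, and without each of E14 replicate 1, E14 replicate 2 and the second E16 library 75, 84 and 58.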

How the data were processed

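The authors aligned reads to mm10 and counted UMIs with Cell Ranger 2.1.1, filtered cells in Seurat 2.0 and deposited natural log (ln) values: 10000 times each gene's fraction of a cell's UMIs, plus 1, logged. The methods state an upper filter of 3000 genes and 15000 UMIs per cell, but the deposited E14 cells go past it, with 892 of 5253 over 3000 genes and up to 18815 UMIs. The log base was read from the values, and UMIs worked back from them were whole within 2% for 100% of values. The class mean of CPM was taken per library. For genes of 10 CPM or more, limma 3.58.1 (R 4.3.3) was run on log2(CPM + 10) with a mean trend and a library block (none between ages within gated cells), and Benjamini-Hochberg adjustment covered all tested genes (threshold 0.05). Fold changes on this scale understate weak genes. The 11 gate genes were left out. Positions are GENCODE vM21 (GRCm38, which is mm10).

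The members and the 27 gene lists were chosen with earlier results of these data known. Named genes are the 16 largest rises and 12 largest falls at E14 with 1 direction in both libraries, up to 4 called genes and 2 abundant genes of a list, and the 5 largest each way elsewhere (4 for the change between ages). Genes named outside this rule, such as further called members of a list, were chosen after their values were seen. In simulated E14 data 79.0% of 2-fold and 99.0% of 4-fold changes were recovered, and 7.81% of calls were false. The simulation gave both classes of a library the same library effect and all genes the same dispersion, with no spread between cells. These rates therefore need not hold for the real data. Alternatives were other pseudocounts, filters, averages, gates, trend, block and libraries left out.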

Additional observations from a re-analysis of the deposited data

Results flagged for a closer look

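The gated-minus-other difference changed between E14 and E16 for 22 genes by the interaction term (limma, adjusted p of 0.05), and 13 of them are named by the rule or by a list. On the log2 scale the difference rose by 1.48 for Igfbp5, 1.22 for Id4, 1.17 for Lrpap1, 1.14 for Clu, 1.11 for Isl1, 1.08 for Gjb2, 1.01 for Sparcl1, 0.91 for Fos and 0.80 for Id3. It changed by -2.47 for Pvalb, -2.30 for Ccl21a, -1.70 for Nnat and -1.68 for Pcp4. Pvalb had no UMI in E14 members, and Ccl21a shares reads with near-identical copies, so both values are uncertain.

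Among gated cells of the 4 P1 libraries, 1 library lay far from the others for 2 of the leading E14 genes. Replicate 3 held 269 CPM of Chst2 and the other P1 libraries 169 to 185 CPM. Replicate 1 held 1947 CPM of Col2a1 and the other P1 libraries 3682 to 3949 CPM. This was looked for in 17 genes, and chance alone sets such a library apart in about 1 of 20 groups.

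The gate still took cells at P7, which no comparison used, with shares of 0.789% and 0.999%. With 14 and 16 cells, no gene was compared there.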

How the results depend on the processing

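Values are numbers of genes called. E14 members against all others gave 941. The number was 620 for genes of at least 50 CPM, 1776 with summed UMIs, 542 with 2 second markers, 599 with Oc90 at 0, 523 without cells of more than 3000 genes, 318 with the trend off, and 479 against others that met the gate's negative conditions. Means of ln values gave 847 higher and 448 lower, against 405 and 536. The Calb1 comparison (557) gave 918 with means of ln values (755 higher, 163 lower), 866 with summed UMIs, 296 with Oc90 at 0, 210 without cells of more than 3000 genes and 66 with the trend off. The Fgf20 comparison (370) gave 0 with the trend off. E16 (312) gave 190 with a pseudocount of 1, 92 with no filter, 620 with means of ln values (462 higher, 158 lower), 469 with summed UMIs, 193 with 2 Ctgf UMIs, 80 with the trend off, 136 against others under the negative conditions, and 172 to 384 without 1 library, the lowest without E16 replicate 2. P1 (3383) gave 1665 for genes of at least 50 CPM, 740 against others under the negative conditions, and 2414 to 3257 without 1 library.

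The change between ages (22) gave 2 and 56 with pseudocounts of 1 and 50, 0 with no filter, 116 with means of ln values, 42 with summed UMIs, 0 with 2 second markers or 2 Ctgf UMIs, 0 with the trend off (525 at an unadjusted p below 0.05), and 1 to 83 without 1 library. Gated cells at E16 against E14 (262) gave 62 with no filter, 1018 with means of ln values (194 higher, 824 lower), 100 with 2 second markers, 129 with 2 Ctgf UMIs, 99 with the trend off, and 58 to 826 without 1 library. The share of members (7.93%) was 2.21% with 2 second markers, 5.65% with 2 Ctgf UMIs, 5.41% with Oc90 at 0, 6.98% without cells of more than 3000 genes and 3.70% at 1500 UMIs.

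Without the replicate block the counts were 159 (38 higher, 121 lower) for E14, 115 for Calb1, 89 for Fgf20, 49 for E16 and 410 for P1. With it they were 180 for the change between ages and 1170 within gated cells (444 higher, 726 lower). Deviations of equally numbered E14 and E16 libraries correlated at 0.0006 over 8859 genes, so the numbers pair no libraries.

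Of 3201 values of named genes 2735 kept direction and side of the threshold, 308 no longer passed it, 34 newly passed it, and 120 either changed sign without having been called or, with 1 library left, shifted past their error. The 4 that reversed were Clu (0.54 with means of ln values, -0.30 as reported), Id4 (0.059 against others under the negative conditions, -1.02 as reported), Pclaf (-0.16 with 2 second markers, 1.11 as reported) and Rrm2 (-1.47 with 2 second markers, 0.59 as reported). The cause was not tested. Leaving out an E14 library leaves no residual spread and gives values only, of which 33 of 136 moved without replicate 1 and 32 of 137 without replicate 2.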
